A study of Homo sapiens with 4 samples.

Results

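Interferon-stimulated genes were examined in PK-1, an established human line of pancreatic ductal adenocarcinoma cells of the well-differentiated type. The list held 46 genes out of the 53826 entities in each table, chosen by symbol, and all 46 were found. They comprised interferon ligands, RNA sensors, signalling factors and antiviral effectors. RNA sequencing had been performed on 4 libraries, 1 for each condition. In the stable model, PK-1 cells had been infected with filtered retrovirus (pMXs) carrying FLAG-tagged SPRR1A, or, for the control cells, DsRed, a red fluorescent protein. In the transient model, PK-1 cells had been transfected with a plasmid (pCAG) carrying FLAG-tagged SPRR1A, or, for the control cells, GFP, a green fluorescent protein, and RNA was isolated after 48 h. Whether the infected cells had been selected, and how long they had been cultured, is not given in the sources used here. SPRR1A is a small proline-rich protein of squamous epithelium, and all 4 libraries carried a foreign vector and a foreign or added coding sequence, so an unmodified PK-1 library was not part of any comparison. Since each condition had 1 library, differences within a condition have no replicate spread to be set against, and p-values are not given.

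Interferons are secreted proteins that cells release after sensing foreign nucleic acid. Type I and type III interferons act through receptors that activate JAK kinases, and a complex that contains STAT2 and IRF9 then binds the interferon-stimulated response element (ISRE) in the promoters of target genes. Some of these genes, such as IFIT2 and ISG15, can also be switched on directly by the IRF factors that RNA and DNA sensors activate, without interferon. In epithelial and carcinoma cells, many of the products restrict viral replication.

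Values are given as the log2 of TPM, the share of transcripts scaled to a fixed total, a level that takes transcript length into account, so that genes can be compared with each other. No deposited value is below 0, a TPM of 1, and a gene at that floor is described as listed at 0; its true TPM may be anything up to 1. A gene was taken as higher or lower when its log2 difference between 2 libraries was more than 1, a 2-fold difference. The control arm below is transient GFP against stable DsRed cells, and the SPRR1A arm is transient SPRR1A against stable SPRR1A cells. The arms share no library, but within each arm the vector, the delivery and the culture history differ together and cannot be told apart. The fluorescent protein differs as well in the control arm. The level of SPRR1A, given below, also differs within each arm, so the arms are not matched for it.

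Across each library, 12964 to 13558 entities were above the floor, and read depth is unknown. SPRR1A itself was at 0.75 in stable DsRed and 10.93 in stable SPRR1A cells, and at 3.56 in transient GFP and 16.60 in transient SPRR1A cells. The libraries were epithelial, as KRT7, KRT8, KRT18, KRT19 and EPCAM lay between 8.88 and 12.94 in all of them, while CDH1 lay between 7.03 and 7.75 and MUC1 reached 0.90. Of 16 markers of fibroblasts, leukocytes, plasmacytoid dendritic cells and endothelium, 14 were listed at 0 in all 4 libraries. The exceptions were COL1A1, with 1.96 to 2.62, and CD68, a lysosomal protein, with 3.99 and 4.09 in stable and 4.89 and 4.91 in transient cells. The summed TPM of the leukocyte list was therefore 15.9 to 17.1 in stable and 29.7 to 30.0 in transient cells, and PTPRC, CD3E and CD14 were at 0. The part of CD68-bearing cells in the results was not tested.

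The promoters of several members contained the ISRE, and the stretches around it are shown for genes on which the comparisons below turn. Promoter sequences of 250 bases before to 50 bases after an annotated start were taken from RefSeq (GRCh38.p14) for 37 of the 46 members. IFIT2, DHX58, OAS2, OASL, MX2, IRF7, USP18, TRIM22 and IFITM2 were not matched. The motif searched was the ISRE core, GAAANNGAAA, on either strand, with overlapping matches counted. It was found for 24 of the 37 members (64.9%), against 1195 of the 27305 genes in the table (4.38%). The capitals below mark the core, which reads TTTCNNTTTC where it lies on the other strand, and positions are counted from the annotated start. The first group comprised genes whose level was more than 2-fold higher in transient cells in both arms.
ISG15, chr1:1013364-1013419, plus strand, bases -133 to -78: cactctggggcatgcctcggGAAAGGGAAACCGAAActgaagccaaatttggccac
IFIT1, chr10:89392487-89392549, plus strand, bases -136 to -74: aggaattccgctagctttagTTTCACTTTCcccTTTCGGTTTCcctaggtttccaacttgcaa
IFIT3, chr10:89327821-89327904, plus strand, bases -176 to -93: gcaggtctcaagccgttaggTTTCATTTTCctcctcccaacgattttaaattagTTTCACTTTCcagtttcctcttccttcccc
HERC5, chr4:88456974-88457074, plus strand, bases -145 to -45: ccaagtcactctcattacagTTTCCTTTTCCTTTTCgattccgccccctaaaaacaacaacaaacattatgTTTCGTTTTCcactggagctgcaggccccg
IFI44, chr1:78649751-78649788, plus strand, bases -38 to -1: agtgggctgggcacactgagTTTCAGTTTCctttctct
ISG20, chr15:88638927-88638976, plus strand, bases -89 to -40: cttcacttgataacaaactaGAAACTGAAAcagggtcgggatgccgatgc

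The second group carried the same core, but their levels differed by less than 2-fold between transient and stable cells in both arms.
IFIT5 (a further core crosses the start and is not shown), chr10:89414503-89414567, plus strand, bases -65 to -1: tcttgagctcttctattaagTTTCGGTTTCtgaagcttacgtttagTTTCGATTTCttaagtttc
BST2, chr19:17405725-17405780, minus strand, bases -150 to -95: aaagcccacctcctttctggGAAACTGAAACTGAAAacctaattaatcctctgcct
IFITM3, chr11:320866-320932, minus strand, bases -72 to -6: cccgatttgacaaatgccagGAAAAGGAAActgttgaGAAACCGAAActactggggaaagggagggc

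Among the matched members, genes with and without the core were found among those that were higher in transient cells. IFIT2, DHX58, OAS2 and OASL, which were higher in both arms, had no matched window and are missing from these counts. Among the matched members above the floor, 9 of 23 with the core and 5 of 11 without it were more than 2-fold higher in the control arm, with median log2 differences of 0.82 and 0.64. In the SPRR1A arm the counts were 6 of 22 and 1 of 11, with medians of 0.35 and 0.43. Members without the core in this window included DDX58, IRF9, HERC6, OAS1, IFI35 and XAF1. A second motif, the GAS core TTCNNNGAA, which has the same letters on both strands and binds STAT dimers, was found for 10 of the 37 members (27.0%) and for 9.38% of all genes. A match or its absence describes only the letters in this window.

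Levels of the members spanned the whole range from the floor to over 9 log2 units. Of the 46 genes, 38 were above the floor in all 4 libraries, and 42 were above it in at least 1. IFNB1 (interferon beta), MX1 and MX2 (dynamin-like antiviral GTPases) and CMPK2 (a mitochondrial nucleotide kinase) did not rise above the floor in any library. The highest members of both stable libraries were IFITM3, BST2 and ISG15, in that order. In both transient libraries ISG15 came first, followed by IFITM3, BST2, OASL and IFIT2. The TPM of all members above the floor summed to 1551 in stable DsRed, 1507 in stable SPRR1A, 2903 in transient GFP and 2531 in transient SPRR1A cells, ratios of 1.87 in the control arm and 1.68 in the SPRR1A arm. Differences in the number of cells with these transcripts and in their level per cell cannot be told apart in these bulk libraries.

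**Figure D1:**
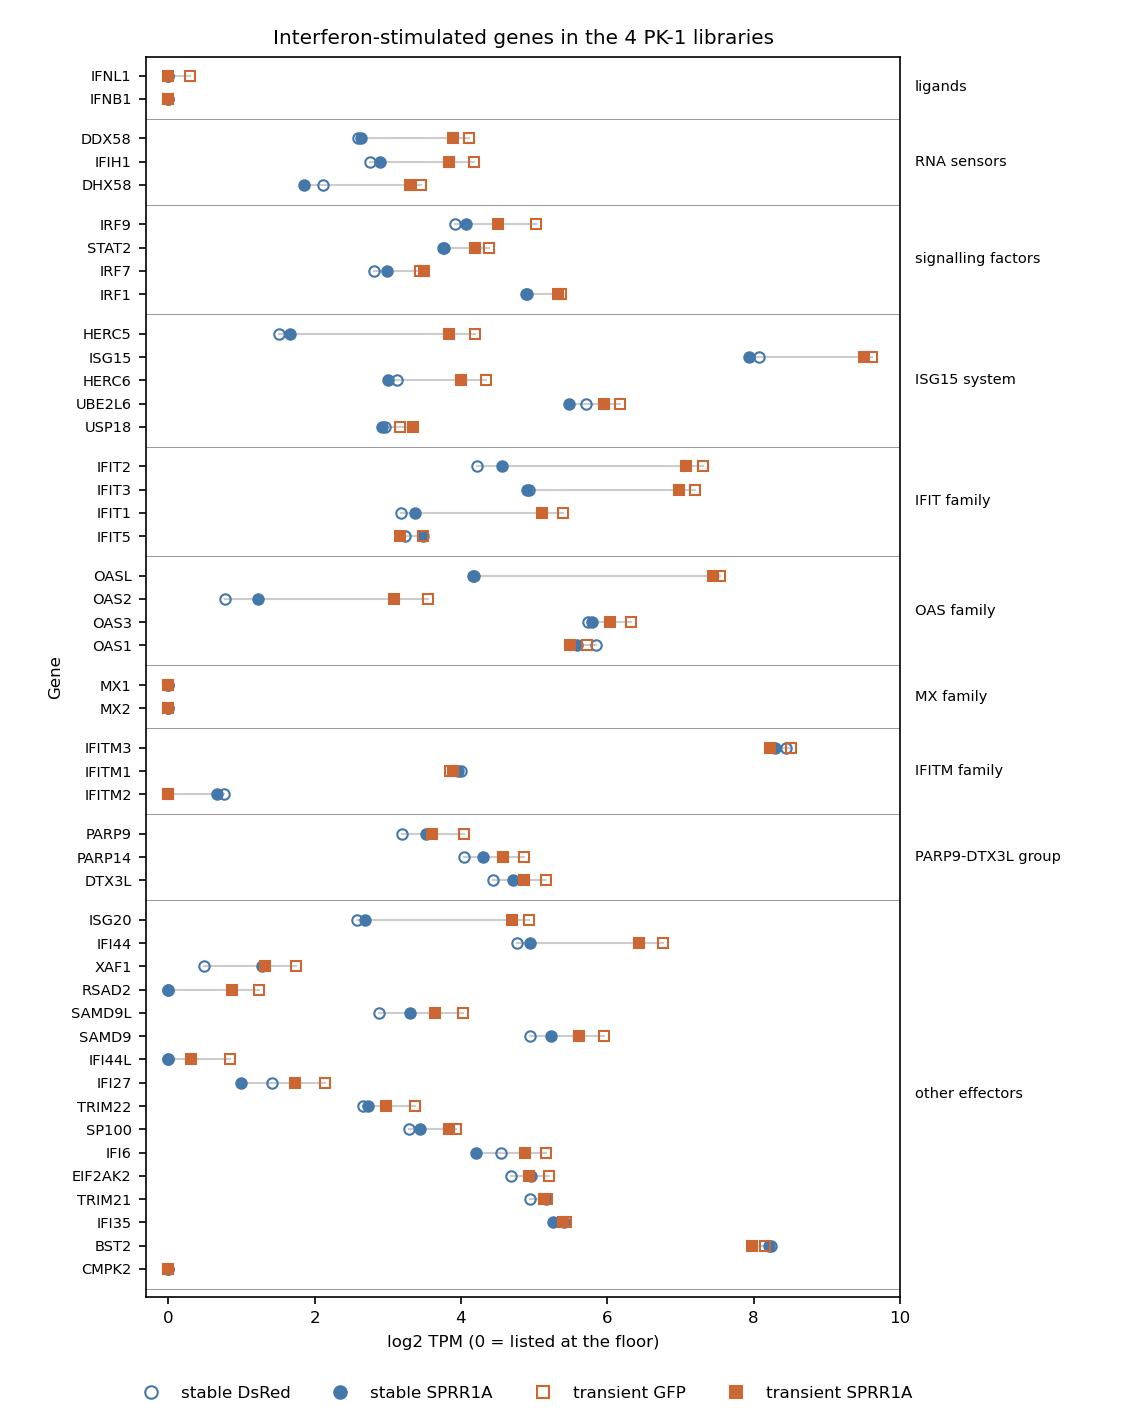
Level of each of the 46 genes as log2 TPM (horizontal axis) in the 4 libraries, grouped by role, with circles for stable and squares for transient cells, open for the DsRed or GFP control and filled for SPRR1A; markers at the same value cover each other, and grey lines join the lowest and highest value. OASL, IFIT2, IFIT3, ISG20 and HERC5 show a wide gap between circles and squares, whereas IFITM3, BST2 and OAS1 do not.

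In the control arm, 18 of the 42 members above the floor were more than 2-fold higher in transient GFP than in stable DsRed cells, and 0 were lower. Over all entities above the floor in that arm, 6.86% were higher and 0.661% were lower. The median log2 difference was 0.78 for the members and 0.18 for all entities. In the SPRR1A arm, 11 of 41 members were higher and 0 were lower, against 2.61% and 0.974% of all entities, with medians of 0.43 and -0.08. All 11 members that were higher in the SPRR1A arm were also higher in the control arm. They made up 100% of the shorter list and 61.1% of the longer one. Over all entities, 354 were higher in the SPRR1A arm, 944 in the control arm and 285 in both, which is 2.13% of those compared. Most calls of the SPRR1A arm were thus shared in general, and the overlap was not particular to the members. The 11 members were DDX58, DHX58, HERC5, IFI44, IFIT1, IFIT2, IFIT3, ISG15, ISG20, OAS2 and OASL. HERC6, IFIH1, IRF9, RSAD2, SAMD9, SAMD9L and XAF1 passed only the threshold of the control arm, and whether the arms differed for them was not tested. RSAD2 was counted with the floor as its stable value.

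The libraries also differed by a general offset. Taken over the entities whose TPM reached 5 on both sides, the median difference was 0.12 in the control arm and -0.11 in the SPRR1A arm, and SPRR1A took up 9.90% of the TPM of the transient SPRR1A library. Centred on these medians, 16 members were higher in the control arm and 13 in the SPRR1A arm. IFIH1 and HERC6 were then past the threshold in both arms, with 1.06 and 1.10 in the SPRR1A arm, and IRF9 and SAMD9 fell below it in the control arm, with 0.98 and 0.89. The median of the members was 0.65 and 0.54 after centring. Of all entities, 4.97% were then higher and 0.966% lower in the control arm, and 3.48% and 0.664% in the SPRR1A arm.

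**Figure D2:**
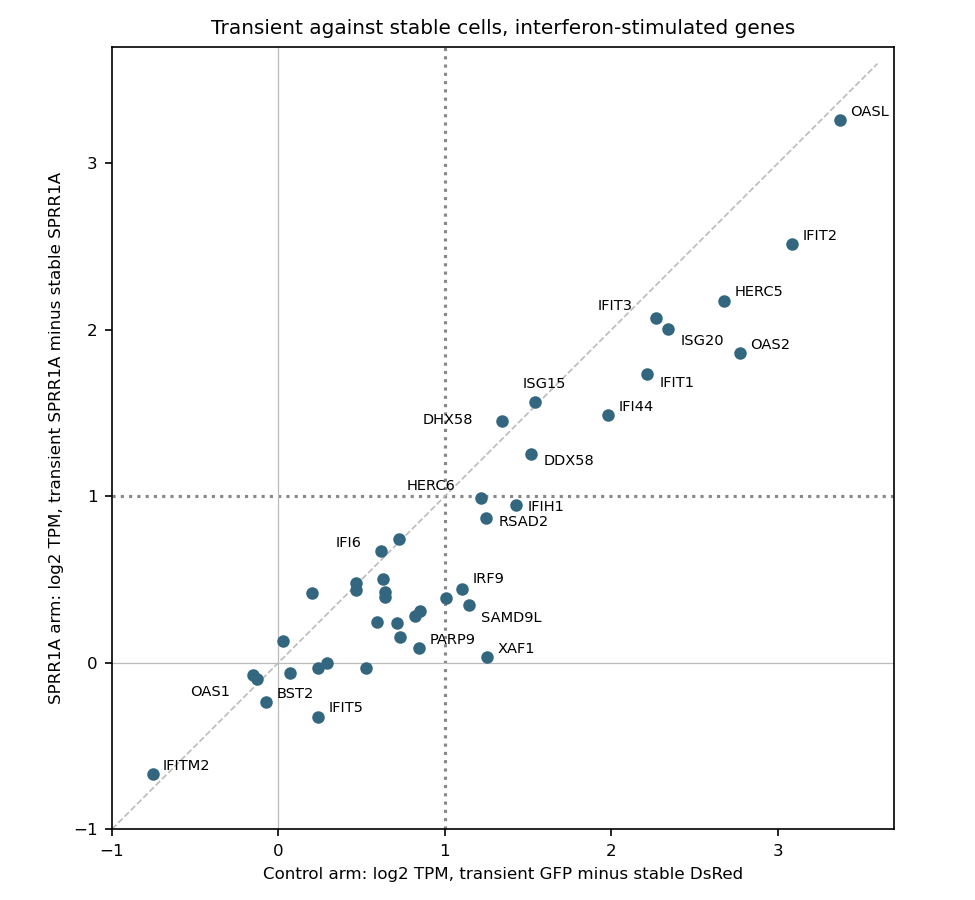
Log2 difference in TPM between transient and stable cells for the 42 genes above the floor, in the control arm (horizontal axis) and the SPRR1A arm (vertical axis); dotted lines mark a 2-fold difference, the dashed line marks equal differences, and a value at the floor counts as 0. The 11 genes in the upper right corner include OASL, with 3.37 and 3.26, and most points lie below the dashed line.

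Both transient libraries were above both stable libraries for 32 members and below them for 3, and the values overlapped for 7. Over all entities, 33.5% were above and 26.2% were below in this way. For the 11 genes named above, the lower transient value exceeded the higher stable value by more than 1 log2 unit. The 3 members with lower values in transient cells were BST2, IFITM1 and IFITM2. These counts used values that were not centred. After centring, IFITM1 had -0.28 in the control arm and 0.04 in the SPRR1A arm, and BST2 had -0.20 and -0.12. IFITM2 was listed at 0 in both transient libraries. The 7 with overlapping values were EIF2AK2, IFI35, IFIT5, IFITM3, IFNL1, OAS1 and TRIM21.

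Among the ligands, IFNL1, a type III interferon, was at 0.29 in transient GFP cells and listed at 0 in the other 3 libraries. With IFNB1 at 0 throughout, interferon beta did not exceed a TPM of 1 in any library.

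Of the 3 cytosolic RNA sensors, 3 were higher in the control arm and 2 in the SPRR1A arm. DDX58, which encodes RIG-I and senses 5′-triphosphate RNA, was at 2.60 in stable DsRed, 2.63 in stable SPRR1A, 4.11 in transient GFP and 3.89 in transient SPRR1A cells. The log2 difference was 1.52 in the control arm and 1.25 in the SPRR1A arm, or 2.86-fold and 2.38-fold. IFIH1, which encodes MDA5, a sensor of long double-stranded RNA, was at 2.75 and 2.89 in the stable control and SPRR1A libraries and at 4.18 and 3.84 in the transient ones, with differences of 1.42 and 0.95. DHX58, which encodes the regulatory receptor LGP2, was at 2.12 and 1.85 in stable and at 3.46 and 3.30 in transient cells, with differences of 1.34 and 1.45. For all 3 sensors the transient values lay above the stable ones.

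The signalling factors differed less. IRF9, the DNA-binding partner of the STAT proteins, was at 3.92 in stable DsRed, 4.06 in stable SPRR1A, 5.03 in transient GFP and 4.50 in transient SPRR1A cells, with differences of 1.10 and 0.44. STAT2, IRF1 and IRF7, which are transcription factors of the interferon pathway, had differences of 0.64, 0.47 and 0.63 in the control arm and of 0.43, 0.44 and 0.50 in the SPRR1A arm. All 4 were above their stable values in both transient libraries, and only IRF9 passed the 2-fold threshold, in 1 arm.

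ISG15 is a ubiquitin-like modifier, and UBE2L6, HERC5 and USP18 are its conjugating enzyme, its main ligase and its deconjugating protease. ISG15 was at 8.08 in stable DsRed, 7.94 in stable SPRR1A, 9.62 in transient GFP and 9.51 in transient SPRR1A cells, with differences of 1.54 and 1.56. HERC5 was at 1.52, 1.67, 4.20 and 3.84 in the same order, with differences of 2.68 and 2.18, or 6.41-fold and 4.52-fold. HERC6, a relative of HERC5, lies 14022 bp from it on chromosome 4 and was at 3.12, 3.01, 4.34 and 3.99, with differences of 1.22 and 0.99. The modifier and the ligase thus stood apart between transient and stable cells. UBE2L6 was at 5.70, 5.47, 6.17 and 5.95, and its differences of 0.47 and 0.48 were within 2-fold. USP18, which also restrains the interferon receptor, was at 2.97, 2.93, 3.17 and 3.34, with differences of 0.20 and 0.42.

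The IFIT genes encode RNA-binding proteins that block translation of foreign RNA, and 3 of the 4 members of the list were higher in both arms. IFIT2 was at 4.22 in stable DsRed, 4.56 in stable SPRR1A, 7.31 in transient GFP and 7.07 in transient SPRR1A cells, with differences of 3.09 and 2.51, or 8.49-fold and 5.71-fold. IFIT3 was at 4.93, 4.91, 7.20 and 6.98 in the same order, with differences of 2.27 and 2.07. IFIT1 was at 3.18, 3.38, 5.40 and 5.11, with differences of 2.21 and 1.73. IFIT5 stood apart from its relatives. It was at 3.24, 3.48, 3.48 and 3.16, with differences of 0.24 and -0.32, and its transient and stable values overlapped. All 4 genes lie on chromosome 10 of GRCh38 between 89302046 and 89420997, in the order IFIT2, IFIT3, IFIT1 and IFIT5, and IFIT5 begins 8081 bp after the end of IFIT1. LIPA is annotated over the same interval.

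The OAS genes encode oligoadenylate synthetases, which activate RNase L on double-stranded RNA, and they covered the widest range of differences. OASL, a member of the family without synthetase activity that enhances RIG-I signalling, was at 4.16 in stable DsRed, 4.18 in stable SPRR1A, 7.53 in transient GFP and 7.45 in transient SPRR1A cells. Its differences of 3.37 and 3.26, or 10.4-fold and 9.60-fold, were the largest of the list in both arms. OAS2 was at 0.78, 1.23, 3.55 and 3.09 in the same order, with differences of 2.77 and 1.86, so that it came from near the floor. OAS3 was at 5.73, 5.79, 6.32 and 6.04, with differences of 0.59 and 0.24. OAS1 was at 5.85, 5.59, 5.72 and 5.49, with differences of -0.13 and -0.10, and its values overlapped. OAS1, OAS3 and OAS2 are neighbors on chromosome 12 from 112906962 to 113011723, with gaps of 5255 and 5268 bp, and in this order their differences were larger at each step in both arms. OASL lies on the same chromosome from 121017761 to 121039246.

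The IFITM genes encode membrane proteins that hinder viral entry, and none was higher in transient cells by 2-fold. IFITM3 was at 8.44 in stable DsRed, 8.29 in stable SPRR1A, 8.51 in transient GFP and 8.23 in transient SPRR1A cells. IFITM1 was at 4.01, 3.97, 3.86 and 3.89 in the same order. IFITM2 was at 0.76 and 0.67 in stable cells and was listed at 0 in both transient libraries. The 3 genes lie next to each other on chromosome 11, with gaps of 4645 and 4404 bp, are close in sequence, and their reads may have been divided between them by the alignment. BST2, or tetherin, which holds budding virus at the cell surface, was likewise among the highest members in every library, with 8.23, 8.21, 8.16 and 7.97.

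PARP9 and DTX3L form a complex that modifies histones and viral proteins, and PARP14 is a related mono-ADP-ribosyltransferase. They lie near each other on chromosome 3, and PARP9 and DTX3L overlap in their annotated spans, so that reads of the overlap may be assigned to either. PARP9 was at 3.20 in stable DsRed, 3.52 in stable SPRR1A, 4.04 in transient GFP and 3.61 in transient SPRR1A cells. The differences of PARP9, PARP14 and DTX3L were 0.85, 0.82 and 0.73 in the control arm and 0.09, 0.28 and 0.15 in the SPRR1A arm. None of the 3 passed the threshold in either arm.

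Of the 16 other effectors, 15 were above the floor, and 6 of them were higher in the control arm and 2 in the SPRR1A arm, against 6.86% and 2.61% of all entities. ISG20, an RNA exonuclease, was at 2.59 in stable DsRed, 2.69 in stable SPRR1A, 4.93 in transient GFP and 4.70 in transient SPRR1A cells, with differences of 2.34 and 2.01, or 5.06-fold and 4.02-fold. IFI44 was at 4.77, 4.95, 6.76 and 6.44 in the same order, with differences of 1.98 and 1.49. These were the 2 genes of this group past the threshold in both arms. IFI44L, which lies 3644 bp from IFI44 on chromosome 1, was listed at 0 in stable cells and was at 0.85 and 0.31 in transient cells. RSAD2, which encodes the antiviral enzyme viperin, was also listed at 0 in stable cells and was at 1.25 and 0.87 in transient cells. Its annotated span overlaps that of CMPK2 on chromosome 2, and CMPK2 was at 0 throughout.

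SAMD9 and SAMD9L, neighboring antiviral genes on chromosome 7, had similar differences. SAMD9 was at 4.94 in stable DsRed, 5.23 in stable SPRR1A, 5.95 in transient GFP and 5.62 in transient SPRR1A cells, with differences of 1.01 and 0.39. SAMD9L was at 2.88, 3.30, 4.03 and 3.65, with differences of 1.14 and 0.35. XAF1, a proapoptotic partner of XIAP, was at 0.49, 1.29, 1.74 and 1.32, with differences of 1.25 and 0.03. For these 3 genes the stable SPRR1A value lay between stable DsRed and the transient values. EIF2AK2, the kinase PKR that halts translation on double-stranded RNA, was at 4.68, 4.96, 5.21 and 4.93, with differences of 0.52 and -0.03.

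The remaining effectors were within 2-fold in both arms. IFI6 and IFI27, which encode small membrane proteins, had differences of 0.62 and 0.72 in the control arm and of 0.67 and 0.74 in the SPRR1A arm. The tripartite motif protein TRIM22 had 0.71 and 0.24, the nuclear body component SP100 had 0.64 and 0.40, the antibody receptor TRIM21 had 0.24 and -0.03, and IFI35 had 0.03 and 0.13.

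To see whether SPRR1A overexpression was associated with a difference in these genes, the SPRR1A library of each model was compared with its own control. Of the members, 0 were past the 2-fold threshold in either model, and of all entities 0.947% were in the stable and 0.889% in the transient comparison, shares so small that less than 1 call would fall on a list of this size. In the stable model the differences of 39 members ranged from -0.43 for IFI27 to 0.80 for XAF1, and their median of 0.07 equalled that of all entities to 2 decimals. In the transient model the differences of 41 members ranged from -0.54 for IFI44L to 0.17 for USP18. Their median was -0.29, against -0.19 for all entities, and 38 of the 41 had differences below 0, as had 12343 of the 13717 entities. Centred on the general offset of -0.18 in this model, the median of the members was -0.10. These comparisons share libraries with the 2 arms and are not independent of them.

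**Figure D3:**
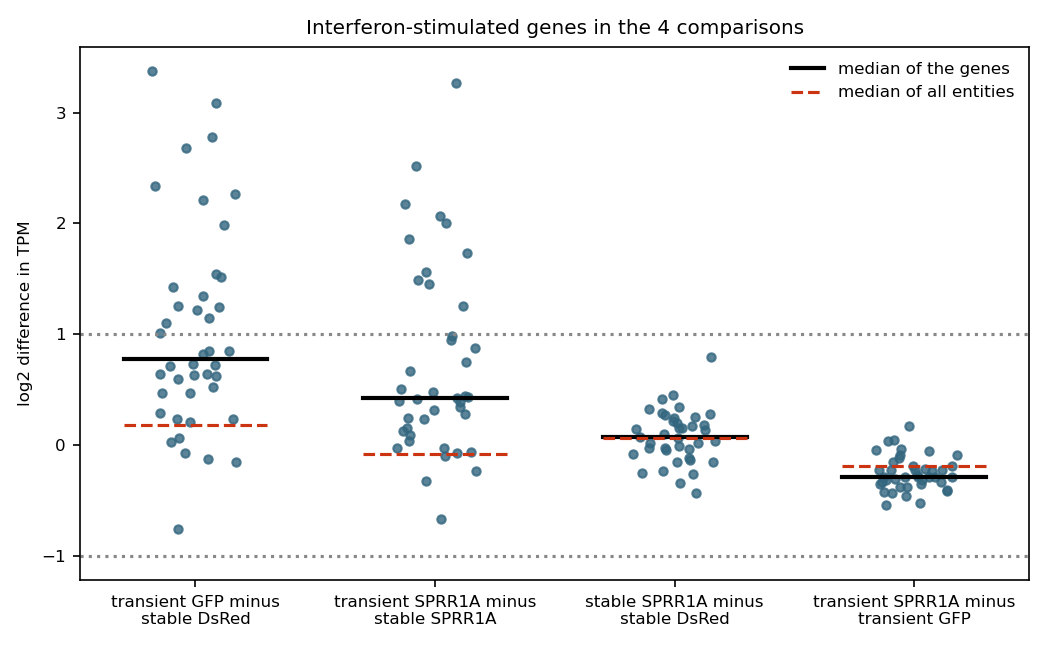
Log2 difference in TPM of each gene above the floor (points) in the 4 comparisons, with the median of the genes (solid line) and of all entities above the floor (dashed line); dotted lines mark a 2-fold difference and the horizontal scatter has no meaning. Differences between transient and stable cells reach 3.37, whereas those between SPRR1A and control cells stay between -0.54 and 0.80.

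Of the 42 members above the floor, 32 had a larger difference in the control arm and 10 in the SPRR1A arm. This count was not made over all entities. The median gap between the arms was 0.28 for the members and 0.25 for all entities, so the members lay close to the general offset. The gap was 1.22 for XAF1, 0.80 for SAMD9L, 0.76 for PARP9, 0.66 for IRF9 and 0.62 for SAMD9. It was -0.02 for ISG15, whose differences in both arms were nearly the same.

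Other genes of the pathway were compared by lists, to be read against the 6.86% of all entities that were higher in the control arm and the 2.61% in the SPRR1A arm, at which a list of this size holds about 1 call or none. The interferon receptors and kinases numbered 9, all above the floor, and 0 were past 2-fold in either arm, with a median of 0.19 in the control arm. The largest difference in the control arm was that of IFNGR1, a chain of the interferon gamma receptor, with 0.92, and its value in the SPRR1A arm was 0.35. The kinases JAK2 and JAK1 had 0.71 each in the control arm, and 0.11 and 0.26 in the SPRR1A arm. In the SPRR1A arm, the receptor chains IFNAR2 and IFNLR1 lay further from 0 than IFNGR1, with -0.50 and 0.49. Of 12 upstream signalling genes, only TLR3, an endosomal sensor of double-stranded RNA, was higher in the control arm (1.02, or 0.89 after centring, below the threshold), and its value in the SPRR1A arm was -0.09. The DNA sensor CGAS (listed as MB21D1) had 0.79 and 0.28, and its adaptor STING1 (listed as TMEM173) had 0.77 and 0.33. Of 7 negative regulators, 0 were past 2-fold. PIAS1, ADAR and IRF2 had 0.51, 0.49 and 0.36 in the control arm and 0.02, 0.05 and -0.21 in the SPRR1A arm, and SOCS3, which inhibits JAK kinases, had -0.25 and -0.37.

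MHC class I antigen presentation genes, many of which respond to interferon, were within 2-fold for 15 of 15 genes in both arms, with medians of 0.24 and 0.17. The transactivator NLRC5 had the largest values, with 0.77 and 0.92, and after centring it was past the threshold in the SPRR1A arm with 1.04. The share of all entities that were higher was 6.86% and 2.61%. Of 12 interferon gamma targets, 7 were above the floor in the control arm, and the chemokines CXCL9, CXCL10 and CXCL11, the guanylate-binding protein GBP5 and the transactivator CIITA were listed at 0 in all 4 libraries. GBP2 alone was past 2-fold, in the control arm, with differences of 1.49 and 0.46. It was at 0.12 in stable DsRed, 0.76 in stable SPRR1A, 1.61 in transient GFP and 1.21 in transient SPRR1A cells. WARS1 (listed as WARS) lay just below the threshold in the control arm, with 0.997 and 0.73. All 7 genes had differences above 0 in both arms. Their medians were 0.74 and 0.45, close to the 0.78 and 0.43 of the members.

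Most of the inflammatory NF-kB targets that were above the floor were also higher in transient cells. Of 14 such genes, 9 of 11 above the floor were higher in the control arm and 9 of 10 in the SPRR1A arm, with medians of 1.60 and 1.26, against 6.86% and 2.61% of all entities. CXCL3 and CCL20 were listed at 0 in both stable libraries and were counted with the floor as their stable value. IL6 entered only through transient GFP cells, as it was listed at 0 elsewhere. NFKBIA, another inhibitor of NF-kB, was within 2-fold in both arms, with 0.49 and 0.41. CXCL1, TNF and CCL2 were listed at 0 in all 4 libraries. TNFAIP3, an inhibitor of NF-kB signalling, was at 4.45 in stable DsRed, 4.64 in stable SPRR1A, 6.26 in transient GFP and 6.05 in transient SPRR1A cells. CXCL8, the chemokine interleukin 8, was at 0.98, 1.54, 3.30 and 3.14 in the same order. Higher levels in transient cells were thus also seen outside the interferon-stimulated genes, and whether the lists differed was not tested.

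**Figure D4:**
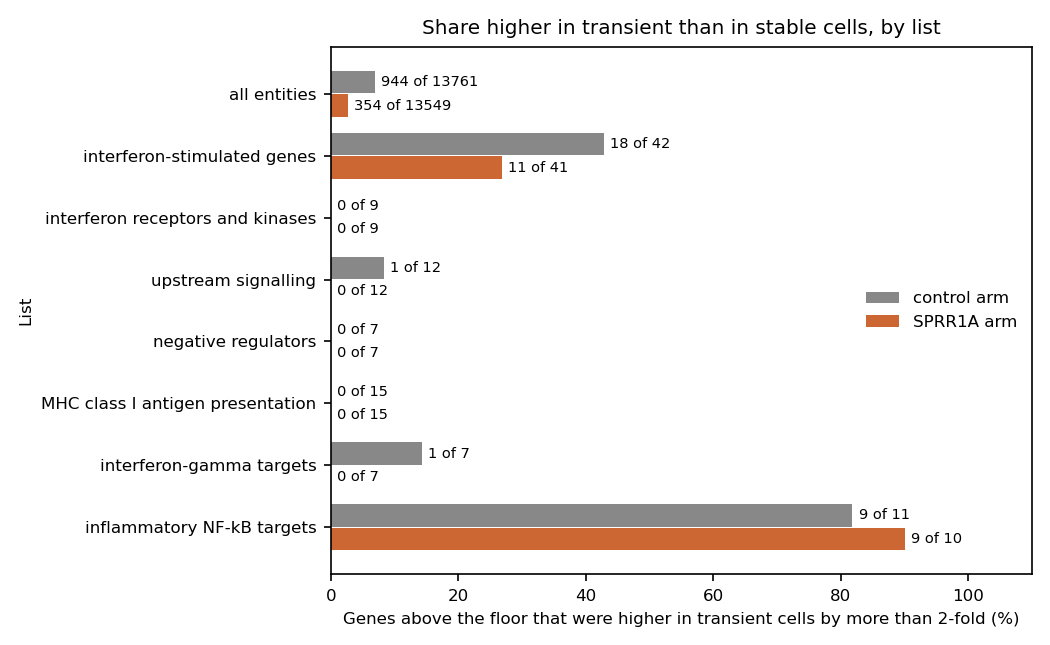
Share of genes above the floor that were more than 2-fold higher in transient than in stable cells (horizontal axis, percent), by list, in the control arm (gray) and the SPRR1A arm (orange), with the counts beside each bar. The interferon-stimulated genes had 18 of 42 and 11 of 41, the inflammatory NF-kB targets 9 of 11 and 9 of 10, and the MHC class I genes 0 of 15 in both arms.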

How the data were processed

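Paired-end reads of stranded mRNA libraries were aligned by the authors with Strand NGS at its default settings, using the hg38 transcriptome, and normalized as TPM. For each library the authors deposited 1 table of log2 TPM values per gene with a floor at 0. The software version, the annotation release and the treatment of reads shared between genes or strands are not given in the sources used here. By RefSeq positions (GRCh38.p14), 17 of the 46 members overlap another annotated gene.

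From the deposited log2 values, differences were taken between pairs of libraries for every entity above the floor in at least 1 of the 2, and compared with a 2-fold threshold. With 1 library per group, no test was run, and the 2 inserts of a model were not taken as replicates of each other. All 46 members are named, grouped by role. Of each other list, at most 5 genes with the largest differences in the control arm are named, apart from markers and genes listed at 0. IFNAR2 and IFNLR1 were added for their values in the SPRR1A arm. IL6 and NFKBIA were added as genes of their list above the floor but not past the threshold. The members and lists were chosen with earlier results of these data known. Alternatives were log2(TPM + 1), log2(TPM + 0.1), filters at a TPM of 5, SPRR1A left out of the TPM total, centring on the median difference, and a longer ISRE form. The calculation of differences in the control arm was tested on simulated data for entities well above the floor. Centring and values near the floor were not covered by it. Python 3.11.15, numpy 2.4.6, pandas 2.3.3 and matplotlib 3.10.9 were used.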

Additional observations from a re-analysis of the deposited data

Results flagged for a closer look

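XAF1 was the only member whose differences between SPRR1A and control cells had opposite signs in the 2 models and lay more than 1 log2 unit apart. SPRR1A minus control was 0.80 for stable and -0.42 for transient cells, a gap of 1.22. With 1 library per condition the gap was not tested, and all 4 values of XAF1 were at or below 1.74 log2 TPM. Opposite signs as such were common. In all, 23 members had a difference above 0 in the stable and below 0 in the transient model, and 2 the other way round. After centring on the general offset, the numbers were 18 and 7. Of all entities, 8512 of 13310 were above 0 in the stable model and 12343 of 13717 were below 0 in the transient model. Opposite signs were thus common in general, and counts of both signs together were not made over all entities.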

How the results depend on the processing

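No paired analysis was possible because each group holds 1 library and groups share at most 1 replicate number; a fit that takes the 2 arms as pairs was not run. Leaving out a library leaves its comparison without a group. The number of members more than 2-fold higher in the control arm was 13 to 18 under all alternatives, and that in the SPRR1A arm 8 to 14. Restricting the genes to those whose TPM reached 5 on both sides gave the lowest counts, with 13 of 33 and 8 of 33 members, against 3.21% and 1.12% of all entities. Leaving SPRR1A out of the TPM total gave 14 of 41 in the SPRR1A arm, against 3.78% of all entities. With the floor set to a TPM of 0 in log2(TPM + 1), chosen after seeing the data, 1 member (IFITM2) was lower in the control arm and 1 in the SPRR1A arm, and 1 (IFNL1) was lower in transient SPRR1A than in transient GFP cells. Of all entities, 1.76%, 2.54% and 3.54% were lower in these 3 comparisons, shares at which about 1 call falls on a list of this size. The shares that were higher were 9.37% in the control arm and 4.7% in the SPRR1A arm. In the same setting IFNL1 and IFI44L were higher in the control arm, with 1.15 and 1.49, and RSAD2 and IFI44L in the SPRR1A arm, the latter with 1.16, while SAMD9 and XAF1 fell below the threshold in the control arm. With log2(TPM + 1) and the floor kept at a TPM of 1, RSAD2, SAMD9 and XAF1 fell below the threshold in the control arm, with 0.75, 0.99 and 0.86. Under the alternatives no called difference changed sign. The median of the members was 0.65 to 0.78 in the control arm and 0.40 to 0.58 in the SPRR1A arm. The longer ISRE form, in which the core is followed by C, was found for 20 of 37 members and for 0.952% of all genes. Depth is unknown, so differences near the floor, as for OAS2, XAF1, IFI27, IFI44L and RSAD2, have no stated precision. The same holds outside the members for GBP2, CXCL8, CXCL3 and CCL20.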
